A study of Mus musculus with 12 samples.

Results

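Among the regions of open chromatin that wild-type (WT) and Runx1 knockout (KO) C2C12 cells have in common, those that lie at the ends of genes were examined. C2C12 is an established mouse line of muscle precursor cells, which multiply as single myoblasts and form multinucleate myotubes at low serum. Open chromatin was mapped by ATAC-seq, in which the Tn5 transposase cuts accessible DNA in isolated nuclei and the sequenced fragments pile up as peaks. A shared peak counted as near a gene end when its centre lay no more than 1 kb from the start or the far end of a gene of the GRCm38 annotation. This held for 8652 of the 24800 shared peaks (34.9%, 95% Wilson interval 34.3 to 35.5). Of the other shared peaks, 10274 lay elsewhere in genes and 5874 between genes.

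The series has 12 samples in 4 groups of 3. The groups used are WT cells and Runx1KO cells in growth medium with 20% FBS at day 0, and no other allele or agent is named for either. The day 2 samples in differentiation medium were not analysed here. How the knockout was made, and whether the knockout cells are 1 clone, is not given in the sources used here. The intervals and values of the lists are those of the replicate 1 library of each genotype. Each value below is therefore from 1 library per genotype, with no replicate error and no p-value. The 95% intervals printed cover counting or sampling over peaks only, and the sequencing depth is unknown.

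Gene starts are where RNA polymerase II and its general factors assemble, and at active genes the DNA there is kept free of nucleosomes. Many such promoters in mammals are rich in CpG dinucleotides and hold short sites for widely expressed factors. NF-Y binds the CCAAT box, SP and KLF factors bind the GC box, ETS factors such as GABPA bind a GGAA core, CREB and ATF factors bind the CRE, and NRF1 binds its own palindrome. RUNX factors bind DNA as a dimer with CBFB, and in myoblasts RUNX1 is known mainly from enhancers, where its sites often lie beside those of ETS and AP-1 factors. Tissue-specific genes such as those of the sarcomere often have CpG-poor promoters that open only when the gene is used.

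The promoters shown next carry the sequence features that the results turn on. Each is the stretch of 150 bases before a RefSeq start (GRCm38.p6), read 5′ to 3′ in the direction of the gene, and each lies mostly under a shared peak. The capitals mark 1 motif per promoter, on either strand. They mark the CCAAT box (CCAAT) in Orc6, the long ETS site (CCGGAAGT) in Rpl37, the CRE (TGACGTCA) in Dusp1 and the NRF1 core (GCGCATGC) in Psma2. Matches to other motifs stay in lower case, among them a CCAAT box in the stretches of Rpl37 and Psma2. Rbl2 is shown because its stretch holds none of the 17 motifs searched.
Orc6 (chr8:85299482-85299631, + strand): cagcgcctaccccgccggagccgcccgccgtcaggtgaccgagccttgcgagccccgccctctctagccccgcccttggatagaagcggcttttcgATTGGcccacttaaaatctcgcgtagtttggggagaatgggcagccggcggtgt
Rpl37 (chr15:5116463-5116612, + strand): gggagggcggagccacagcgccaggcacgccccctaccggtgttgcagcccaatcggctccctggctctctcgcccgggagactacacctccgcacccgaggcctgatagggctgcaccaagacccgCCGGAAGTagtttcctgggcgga
Dusp1 (chr17:26508473-26508622, - strand): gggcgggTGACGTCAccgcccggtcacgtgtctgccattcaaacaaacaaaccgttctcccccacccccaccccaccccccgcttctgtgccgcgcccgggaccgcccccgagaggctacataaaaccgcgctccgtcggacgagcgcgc
Psma2 (chr13:14613092-14613241, + strand): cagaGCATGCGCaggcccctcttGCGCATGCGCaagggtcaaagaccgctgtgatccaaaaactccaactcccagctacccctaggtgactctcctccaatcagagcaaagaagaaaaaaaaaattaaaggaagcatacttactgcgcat
Rbl2 (chr8:91069907-91070056, + strand): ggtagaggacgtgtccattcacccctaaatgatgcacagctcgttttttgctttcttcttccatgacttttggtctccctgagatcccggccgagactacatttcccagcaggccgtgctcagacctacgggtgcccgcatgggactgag
Orc6, a subunit of the complex that marks replication origins, had a peak of 20.5-fold in WT and 15.3-fold in KO over the background. Rpl37, a protein of the large ribosomal subunit, had 19.5-fold in WT and 15.5-fold in KO. Dusp1, a phosphatase that is switched on by stress and serum, had 7.77-fold in WT and 4.78-fold in KO, and Psma2, a subunit of the proteasome core, had 12.2-fold in WT and 16.9-fold in KO. Rbl2, a relative of the retinoblastoma protein, had 14.7-fold in WT and 10.9-fold in KO.

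The promoters of the 3 RUNX genes and of Cbfb are shown because Runx1 is the targeted gene. Here the capitals mark the RUNX motif (TGTGGT) on either strand.
Runx1 (chr16:92826075-92826224, - strand): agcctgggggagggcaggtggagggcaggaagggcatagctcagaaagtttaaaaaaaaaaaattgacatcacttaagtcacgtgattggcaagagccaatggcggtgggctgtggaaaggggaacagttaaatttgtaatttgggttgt
Runx2 (chr17:44814628-44814777, - strand): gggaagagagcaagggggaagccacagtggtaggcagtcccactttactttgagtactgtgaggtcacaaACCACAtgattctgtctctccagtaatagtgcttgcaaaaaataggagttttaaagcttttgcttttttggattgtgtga
Runx3 (chr4:135120495-135120644, + strand): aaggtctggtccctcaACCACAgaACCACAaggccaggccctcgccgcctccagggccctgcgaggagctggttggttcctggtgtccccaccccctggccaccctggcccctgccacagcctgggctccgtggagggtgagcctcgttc
Cbfb (chr8:105170524-105170673, + strand): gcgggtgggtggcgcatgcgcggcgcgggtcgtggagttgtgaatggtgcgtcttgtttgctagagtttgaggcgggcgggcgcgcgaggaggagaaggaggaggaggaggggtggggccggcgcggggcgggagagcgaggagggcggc
The stretch of Runx3 holds 2 RUNX motifs and that of Runx2 holds 1, while no match lies in the stretches of Runx1 and Cbfb. Runx1 has a second RefSeq start that is not shown, as has Runx3.

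All 4 of these genes had a shared peak at their start, in both genotypes. At Runx1, the targeted gene, the peak at chr16:92825830-92826223 had a deposited fold enrichment of 6.46 in WT and 5.41 in KO, and a −log10 q of 14.99 and 10.6. The start of the targeted gene was thus still called as open in the KO library, so this peak is no check of the knockout. At Runx3 (chr4:135120325-135120843) the fold was 16.9 in WT and 10.1 in KO. At Cbfb, the partner subunit of all RUNX factors (chr8:105170400-105170687), it was 14.9 in WT and 8.54 in KO. At Runx2, the RUNX factor of bone (chr17:44814576-44815238), it was 8.02 in WT and 9.82 in KO. Against the common KO to WT ratio of all shared peaks, defined below, the ratio was 0.960 at Runx1, 0.684 at Runx3, 0.657 at Cbfb and 1.41 at Runx2. Of the 4, Cbfb alone lay past the fold rule given below, by which 3.88% of all shared peaks were lower in KO. Runx3 and Cbfb lay in the quintile of shared peaks with the highest WT fold. There the median ratio near gene ends was 0.9301.

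The peaks near gene ends had higher folds and greater widths than the other shared peaks in both libraries, with intervals of the medians that did not overlap. Their median fold over the background was 11.3 in WT (interval 11.2 to 11.4) and 9.81 in KO, against 10.02 and 8.86 away from gene ends. The median −log10 q was 24.3 in WT and 21.5 in KO, against 19.7 and 17.8. The median width was 502 bp in WT and 525 bp in KO, against 387 bp and 406 bp. The WT fold of single peaks ranged from 2.12 to 30.5, and the width from 124 to 1611 bp. The wider intervals were also seen at like strength. Among the weakest quintile of all shared peaks by WT fold the medians were 360 and 292 bp, and among the strongest quintile 556 and 468 bp.

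Strength fell with distance from the gene end. The median WT fold was 12.01 for the 3797 peaks centred within 100 bp of an end, 11.6 from 100 to 250 bp, 10.3 from 250 to 500 bp and 9.52 from 500 to 1000 bp. The KO medians were 10.3, 10.1, 9.08 and 8.41. In both libraries the intervals of the medians overlapped for the bins on either side of 100 bp, and those of the other neighbouring bins did not. Just inside the limit, from 900 to 1000 bp, 203 peaks had a median WT fold of 9.74. Just outside, from 1000 to 1100 bp, 173 shared peaks had 9.06. The intervals of these medians overlapped, 9.15 to 10.2 just inside and 8.47 to 9.57 just outside.

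Strand was known for 27025 of the 49997 genes of the annotation. By it, 6461 peaks lay at a gene start, 416 at the far end of a gene only and 1775 at a gene end of unknown strand. Peaks at starts had a median WT fold of 11.6 and a width of 516 bp. Peaks at far ends only had 9.72 and 380 bp, close to the medians away from gene ends. A class of 824 peaks lay at divergent starts, where genes on opposite strands are read away from each other, and these had a median fold of 12.8 in WT and 11.04 in KO and a width of 572 bp. The other 5637 peaks at starts had 11.4 and 9.89 and a width of 508 bp.

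At starts, the point of highest signal lay just before the start of transcription. The median summit position was 19 bp upstream in both libraries, and the middle 50% of WT summits lay between 91 bp before and 72 bp after the start. Of the 6461 WT summits, 3599 (55.7%) lay within 100 bp of the start, and of the KO summits 3581 (55.4%). The peak itself was not centred there. Its median centre lay 21 bp after the start in WT and 29 bp after it in KO, and 5300 WT intervals (82.03%) covered the start.

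**Figure D1:**
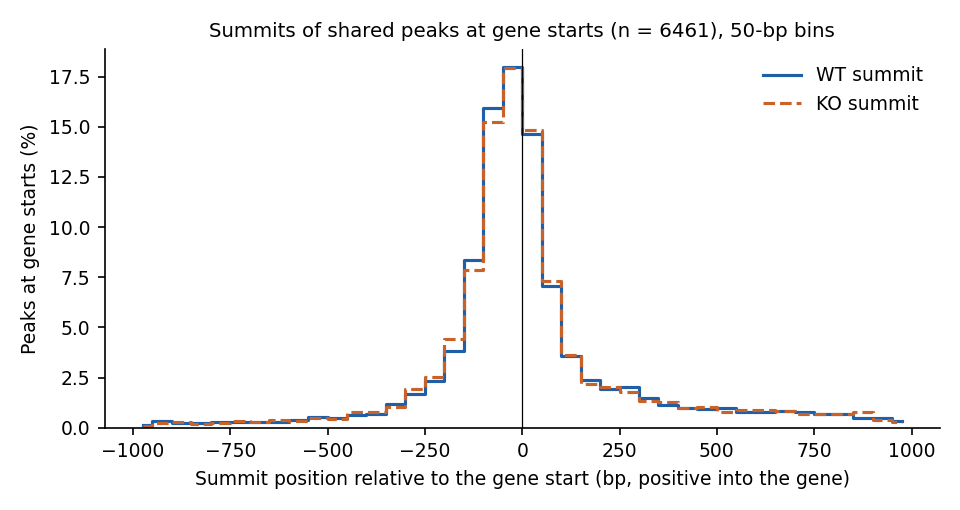
Position of the summit relative to the nearest gene start for the 6461 shared peaks at gene starts, as the percentage of peaks in each 50-bp bin (y axis) against distance in bp (x axis, positive into the gene). Solid line, WT replicate 1. Dashed line, KO replicate 1. Both curves are highest in the 50 bp before the start, and the median is 19 bp upstream in each.

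The WT and KO intervals of a peak matched closely, though rarely to the base. The summits of the 2 libraries lay a median of 30 bp apart, and 462 peaks (5.34%) had the same summit position. They lay over 200 bp apart at 619 peaks (7.15%), against 4.99% away from gene ends. The overlap was a median of 0.784 of the combined interval, and 8351 peaks (96.5%) matched 1 to 1. Across the peaks near gene ends the WT and KO fold had a Spearman rho of 0.831 and a Pearson r of 0.821 on the log2 scale (n = 8652). Away from gene ends these were 0.713 and 0.712 (n = 16148). These are correlations across peaks of the same pair of libraries, and peaks are not independent replicates.

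The share of peaks found again in the other genotype was higher near gene ends, with intervals that did not overlap. This share was not computed among peaks of like strength or width. Of the 10359 WT peaks near gene ends, 8652 (83.5%, interval 82.8 to 84.2) overlapped a KO peak, against 67.97% of those away from gene ends. Within the near-end class the share was 86.1% at starts and 66.9% (63.1 to 70.5) at far ends only. Of the 8916 KO peaks near gene ends, 8572 (96.1%) overlapped a WT peak, against 87.6% elsewhere. WT peaks near gene ends without a KO partner numbered 1707, and KO peaks without a WT partner 344.

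For the comparison of the genotypes, the ratio of KO to WT fold was divided by its median over all 24800 shared peaks, 0.872, since the KO fold was below the WT fold at 76.5% of the peaks near gene ends and 69.8% of the others. The fold rule was passed when this scaled ratio was 1.5 or more (KO higher) or 0.667 or less (KO lower). Of the peaks near gene ends, 203 (2.35%, interval 2.05 to 2.69) were lower and 341 (3.94%, 3.55 to 4.37) higher in KO. Over all shared peaks, the percentage past the rule was 3.88% for lower and 6.22% for higher. Without the scaling, 769 peaks near gene ends were lower and 132 higher. The median scaled ratio was 0.992 near gene ends and 1.01 away from them, and the middle 50% of ratios ran from 0.874 to 1.14 near gene ends and from 0.860 to 1.20 away from them. Both shares were below those of the other shared peaks, of which 4.69% (4.38 to 5.03) were lower and 7.44% (7.04 to 7.85) higher, with intervals that did not overlap. With 1 library per genotype, a difference between genotypes and a difference between these libraries cannot be told apart.

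The smaller share past the rule was also seen among peaks of like strength. The WT fold is the denominator of the ratio, so weak WT peaks tend to high ratios and strong ones to low ratios: the median scaled ratio near gene ends went from 1.19 in the weakest quintile to 0.9301 in the strongest. In the middle quintile, 3.20% of peaks near gene ends and 6.06% of the others were lower in KO. In the quintile above it these shares were 3.14% and 8.15%, and in the strongest 2.26% and 6.30%. In the weakest quintile, 18.5% and 24.0% were higher. The shares of lower peaks in the weakest pair of quintiles, 0.579% and 2.17% near gene ends against 0.754% and 3.16%, had intervals that overlapped. In every quintile by width too, the share lower in KO was smaller near gene ends, for example 1.74% against 3.93% among the widest.

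**Figure D2:**
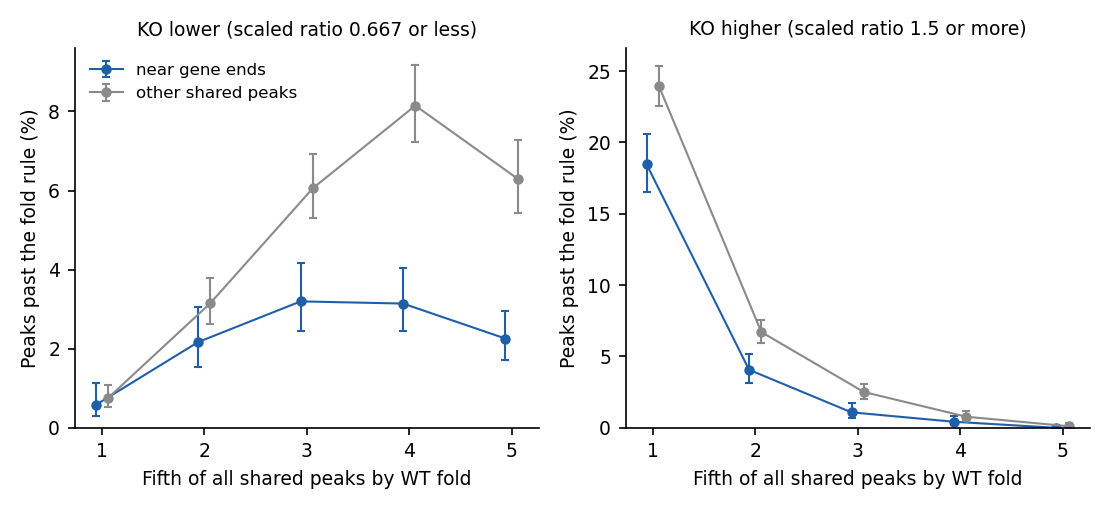
Percentage of peaks past the fold rule (y axis, left KO lower, right KO higher) in quintiles of all shared peaks by WT fold (x axis, 1 weakest to 5 strongest). Blue, shared peaks near gene ends. Grey, other shared peaks. Bars are 95% Wilson intervals. The blue points lie below the grey ones in every quintile, and the intervals are apart from the middle to the strongest quintile for KO lower and in the weakest 3 quintiles for KO higher.

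By side, 129 of 6461 peaks at starts were lower (1.997%) and 240 higher (3.71%), and of the 416 at far ends only 20 were lower (4.81%, interval 3.13 to 7.31) and 23 higher (5.53%). Divergent starts had the smallest of these shares, 1.58% lower (interval 0.924 to 2.68) and 2.67% higher (1.77 to 4.01). These intervals overlapped those of the other starts, 1.72 to 2.46 and 3.395 to 4.40. Among the peaks that did not match 1 to 1, 76 (25.25%) were higher, and their KO partners had a median width of 882 bp. For 252 of them the KO partner was shared with another WT peak, so that 1 KO value stood for several WT peaks.

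The extremes of the ratio among peaks at protein-coding genes that matched 1 to 1 were chosen by their ratio, so their values are given as a description. The lowest lay near the end of 4930564D02Rik, with a fold of 11.7 in WT and 4.59 in KO. It was followed by Rwdd2b (13.7 and 5.61), Tmbim4 (15.5 and 6.81), Rbm12b2 (12.4 and 5.47), Dnajc22 (9.18 and 4.14) and Ago1, the Argonaute that carries microRNAs (12.9 and 6.005). Marveld1 (10.8 and 4.999) and Cdiptos (15.1 and 7.03) completed the 8, and their scaled ratios lay between 0.451 and 0.533. All but Dnajc22 had a WT −log10 q above 19, beside a median of 24.3 over all peaks near gene ends.

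The highest ratios came from weak WT peaks. They lay at Zfp345, a zinc finger gene, with a fold of 5.09 in WT and 12.9 in KO, and at Fyco1 (5.09 and 12.5), a protein of autophagosome transport. Then came Awat2 (5.86 and 13.0), Fam8a1 (5.77 and 12.2), Poglut1 (5.57 and 11.6), AU018091 (4.46 and 9.16), Ccdc89 (5.73 and 11.6) and Zfp931 (5.09 and 10.3). Their scaled ratios lay between 2.32 and 2.90. None of the 8 had a WT −log10 q above 6, and Zfp345, Fyco1 and Zfp931 had the same WT fold and the same WT −log10 q of 4.30.

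A peak near an end was found at 8190 of 21900 protein-coding genes (37.4%), at 1727 of 12731 lncRNA genes (13.6%), at 152 of 430 tRNA genes (35.3%) and at 87 of 1228 miRNA genes (7.09%). A further 1026 protein-coding genes had a WT peak near an end but no shared one, and 219 had a KO peak only. Most protein-coding genes with a shared peak had 1 (7672 genes), 503 had 2 and 15 had 3. Among the latter, Dock5 had 3 narrow WT peaks of 131 to 414 bp under 1 KO peak of 1306 bp, and Dhrs3 had 2 of its 3 WT peaks under 1 KO peak of 667 bp. Ap4e1, Cog8 and Ecsit also had 3. The 65 peaks at tRNA genes alone, read by RNA polymerase III, were weaker, with a median fold of 7.97 in WT and 7.38 in KO. The 7414 peaks with a protein-coding gene had 11.5 and 10.01.

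The widest WT peaks included promoters of several cell functions. The widest, 1611 bp, lay at Rnu3b4, a copy of the U3 small nucleolar RNA. The next lay at Herpud1, a gene of the response to unfolded protein (1568 bp, fold 18.5 in WT and 14.9 in KO), at Polr2a, the largest subunit of RNA polymerase II (1553 bp), at Insig1, a brake on sterol synthesis (1512 bp), and at Akt1s1, a subunit of mTORC1 (1488 bp). In KO the peaks at Polr2a and Herpud1 were nearly as wide, 1440 and 1484 bp, and that at Insig1 was 618 bp. The highest WT folds, named after it was seen that the highest −log10 q all lay on chromosome 8, were 30.5 at Gm5165, 28.5 near Zfp959, 28.1 at Catspere2, 27.96 at Desi2 and 27.5 at Gm32618, and the KO folds of these ranged from 19.3 to 23.8.

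Most genes of the 8 lists of basic cell functions that follow had a shared peak near an end. A peak was found at 71 of 84 cytosolic ribosomal protein genes, 28 of 37 proteasome subunits, 30 of 37 subunits of respiratory complex I and 18 of 20 cytosolic aminoacyl-tRNA synthetases. Such a peak was also found at 19 of 21 Sm, SF3 and other core proteins of the spliceosome and 25 of 30 Mediator subunits. The same held for 10 of 12 subunits of RNA polymerase II and 19 of 21 genes of replication licensing. Of 63 clustered histone genes 31 had one, and these shared 22 peaks. The genes said to lead a list are those with the highest WT −log10 q, and of these Orc6, Farsa, Ndufb7 and Rbl2 lie in a stretch of chromosome 8 where −log10 q was high at a given fold, as described below. The members of each list are described by counts and medians, beside the 37.4% of all protein-coding genes and the WT median of 11.3 over all peaks near gene ends.

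Replication licensing, the loading of the MCM helicase at origins, had the highest median WT fold of these lists, with a median fold of 15.1 in WT and 13.6 in KO. Its strongest by −log10 q were Orc6, Gins2 (19.4 and 15.8), Mcm3, a subunit of the helicase (24.4 and 19.1), and Mcm5. Orc1 and Orc4 had no peak near an end in either library. The synthetases, which join amino acids to their tRNAs, followed with 14.2 and 11.9 and were led by Lars (21.1 and 16.01), Farsa (19.8 and 16.9), Tars (22.6 and 21.1) and Wars (20.9 and 14.4). Eprs and Rars had no shared peak, though 1 of them had a WT peak alone. Complex I had a median of 13.4 and 11.2 and was led by −log10 q, though not by fold, by Ndufb7 (13.8 and 10.07), with Ndufb5, Ndufs8 and Ndufv3 (18.4 and 16.02) next. Of its other 7 genes, 3 had a KO peak alone and 1 a WT peak alone.

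The spliceosome list had a median fold of 12.98 in WT and 11.6 in KO and was led by Sf3b2, Snrpd2, Snrpc and Sf3b5. Snrpe and Snrpb had no shared peak, though 1 of them had a WT peak alone. Mediator, which links activators to the polymerase, had 12.7 and 10.1, led by Med19 (24.3 and 18.3), Med30, Med26 and Med21. Med12l, Med28, Med13l, Med9 and Med10 had no shared peak, though 2 of them had a WT peak alone. RNA polymerase II had 12.1 and 9.94, led by Polr2b, Polr2h, Polr2i and Polr2e. Polr2l and Polr2g had no peak near an end in either library. The proteasome had 12.4 and 10.37, led by Psmd3 (19.9 and 14.1), Psma5, Psmd4 and Psmd8. The ribosomal proteins had 11.6 and 9.66, with Rpl37, Rpl15 (20.6 and 17.9) and Rps29 among the highest by −log10 q. Histone genes had medians of 8.95 and 8.06 at a median width of 646.5 bp, led by H2bc3, H2bc9, H3c7 and H2ac6. H2bc9 and H3c7 have the same peak, which lies at the far end of H2bc9. That of H2ac6 lies at its far end and near an end of H2bc4 as well.

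Genes of differentiated muscle seldom had such a peak. Of 36 genes of the sarcomere and of muscle metabolism, 6 had a shared peak near an end. Mylpf, a fast myosin light chain, had the strongest, at chr7:127208771-127209384, with a fold of 14.8 in WT and 14.3 in KO. It was followed by Actn3 (10.6 and 12.4), Myom1 (9.53 and 8.77) and Tnnt2 (7.24 and 5.41). The peaks of Mylpf, Actn3 and Myom1 lay near ends of Tbc1d10b, Zdhhc24 and Myl12a as well, and that of Tnnt2 lay at its far end. The 30 genes without one, of which some are named here after this was seen, included the myosins Myh1, Myh2, Myh3 and Myh4, the actins Acta1 and Actc1, and the creatine kinase Ckm. With a distance of 500 bp, 2 of the 36 were left.

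Among 22 myogenic regulators, 10 had a shared peak. Myod1, the master regulator of the lineage, had 6.35 in WT and 5.48 in KO (chr7:46376215-46376579). Tcf3, the E protein partner of MYOD1, had 14.9 and 13.0, and Id2, Mef2d and Id3 came next by −log10 q, with 9.14 and 6.64, 8.17 and 7.08, and 6.35 and 5.10. Myog, Myf5, Myf6, Pax3, Pax7, Mef2a, Mef2b, Mef2c, Tcf12, Eya1, Eya4 and Msc had no shared peak, though 3 of these 12 had a WT peak alone. Of 19 fusion genes 6 had a shared peak, led by Myo9b (19.2 and 14.3), Rac1, Itgb1 and Kirrel. Mymk and Mymx, the fusogens of muscle, had no shared peak, nor had Adgrb1, Adgrb3, Cd9, Cdh15, Dock1, Elmo1, Jam2, Jam3, Ncam1, Nphs1 and Stab2. Of these 13 genes, 3 had a WT peak alone and 1 a KO peak alone.

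The label of the cells was checked against marker genes. Of 12 myoblast markers, 6 had a shared peak near an end, at Chrna1, Des, Tead4, Runx1, Cdh2 and Myod1, with folds of 6.35 to 14.8 in WT. Vcam1, Cdh15, Itga7, Myf5, Pax7 and Msc had no peak near an end in either library. No marker of endothelium (0 of 4), epithelium (0 of 4), liver (0 of 4) or adipocytes (0 of 3) had one. Spi1 of the 6 blood markers, Tubb3 of 4 neuronal markers and Col1a1 of 4 markers of other mesenchyme did, with WT folds of 8.25, 7.33 and 5.94. Of 1106 olfactory receptor genes, which are used mainly in the nose, Olfr70 and Olfr49 had one. An open gene end is not a measure of expression.

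Of 21 collagen and matrix genes, 13 had a shared peak, led by Fn1 (14.4 and 10.2), Lox, Postn and Sparc, and Col1a2, Col3a1, Col6a1, Col6a3, Col11a1, Eln, Loxl2 and Thbs1 had no shared peak, though 1 of them had a WT peak alone and 2 a KO peak alone. Of 22 G1 cyclins, kinases and inhibitors, 12 had one, led by E2f3 (16.8 and 13.5), Rbl2, Cdkn2d and Cdk4. Ccnd1, Ccnd2, Ccnd3, Cdk6, Cdkn1a, Cdkn1c, Cdkn2a, Cdkn2b, E2f2 and Rbl1 had no shared peak, though 1 of them had a WT peak alone. Of 26 ETS factors, 10 had one, led by Etv5 (18.4 and 13.1), Gabpa (15.3 and 12.9), Elf1 (13.7 and 12.4) and Elk1 (14.8 and 14.03). Ets1, Fli1, Erg, Elk3, Elk4, Elf3, Elf4, Elf5, Ehf, Erf, Etv1, Etv2, Fev, Spib, Spic and Spdef had no shared peak, though 3 of them had a WT peak alone and 2 a KO peak alone.

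**Figure D3:**
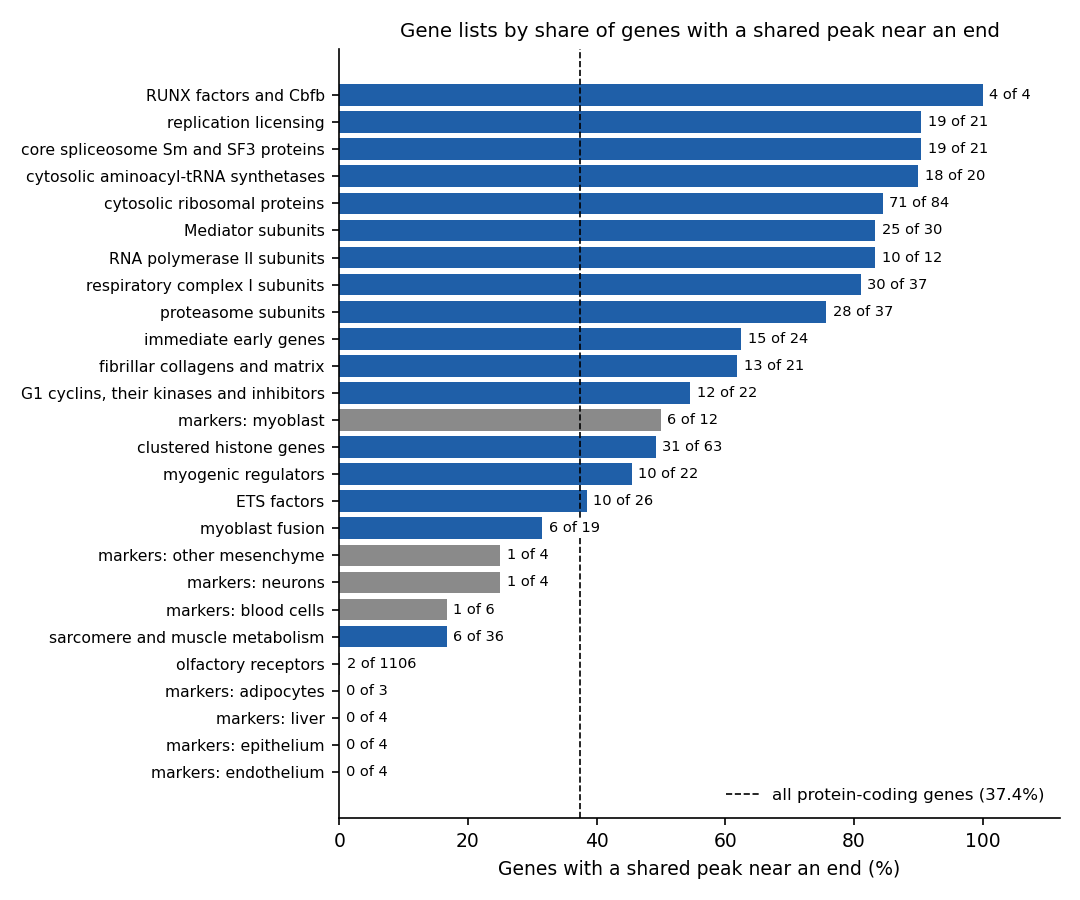
Percentage of the genes of each list with a shared peak centred within 1 kb of an end (x axis), with the numbers beside the bars. Blue bars are functional lists, grey bars marker lists. The dashed line is the 37.4% of all protein-coding genes. The proteasome lies at 75.7% and replication licensing at 90.5%, clustered histone genes at 49.2%, sarcomere genes at 16.7% and olfactory receptors at 0.181%.

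Between the genotypes, immediate early genes had the lowest median ratio of the functional lists after the 4 RUNX and Cbfb genes, whose median was 0.822. These genes are switched on within minutes by serum and stress. A peak was found at 15 of 24, with a median fold of 12.2 in WT and 8.42 in KO and a median scaled ratio of 0.831, beside 0.992 over all peaks near gene ends. At Klf10 the fold was 12.2 in WT and 8.42 in KO, at Atf3 17.9 and 16.02, at Jun 13.7 and 9.24, and at Fosl2 14.5 and 7.89. The highest scaled ratio of the list was 1.08, at Fos. Fosl2, a partner of JUN in AP-1, was the single one of the 15 past the fold rule, with a ratio of 0.626. Over all shared peaks, 3.88% were lower in KO. Klf4, Fosb, Fosl1, Zfp36, Jund, Egr2, Egr3, Nr4a1 and Srf had no shared peak. Of these 9 genes, 3 had a WT peak alone, 1 a KO peak alone and 5 no peak near an end. Of the 15, the peaks of Junb, Ier2 and Klf2 lay on chromosome 8, and Junb and Ier2 in the stretch described below. The 1878 peaks near gene ends with a WT fold from 11.53 to 14.3 had a median scaled ratio of 0.962. The list was singled out by its median ratio, which is a description of 1 pair of libraries.

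The other list genes past the fold rule are named after their values were seen, beside the 3.88% lower and 6.22% higher over all shared peaks. Lower in KO were Ndufa11 of complex I (15.3 in WT and 7.43 in KO), the cyclin Ccne2 (12.3 and 6.17), Gmnn, an inhibitor of licensing (15.9 and 8.49), Rpl27a (14.9 and 8.53) and Rpl10 (13.6 and 7.87). Higher in KO were Psmc1 (5.11 and 7.95), Snrpa1 (8.44 and 12.5), Psma2, Cd81 (4.69 and 6.50), Olfr49 (6.37 and 8.78) and Col5a3 (4.51 and 5.95). The other functional lists had medians of the scaled ratio between 0.923 for myogenic regulators and 1.08 for the 6 sarcomere genes. No gene of the synthetases, RNA polymerase II, Mediator, histones, ETS factors, myogenic regulators or sarcomere passed the rule, and since these lists hold 6 to 25 peaks each, nothing is read from that.

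The base composition of the promoters under these peaks differed from that of closed promoters. RefSeq start windows of 300 bases, 250 before and 50 after a start, numbered 32817 after identical windows had been merged, none of them on chromosome 18. Of these, 6936 were covered for at least 150 bases by a shared peak near a gene end and are called peak promoters here, 22911 overlapped no WT or KO peak, and 2970 overlapped a peak in another way. The median GC content was 62.7% in peak promoters and 49.3% in promoters with no peak. The median number of CpG was 24 against 4, and 83.2% against 16.1% held at least 15. CpG content did not order the strength of the peaks: the median WT fold was 12.1 in the quintile with the fewest CpG, 12.7 in the middle quintile and 11.1 in the quintile with the most.

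Of the 17 motifs searched, on both strands, 10 were in a larger share of peak promoters than of promoters with no peak. The ETS core (CCGGAA) was in 35.01% of peak promoters, 7.43% of promoters with no peak and 14.9% of all, and the long ETS site, which contains it, in 763 of 6936 peak promoters, 1.29% of those with no peak and 3.89% of all. The GC box (GGGCGG) was in 71.9%, 21.6% and 35.6%. The NRF1 core was in 6.72%, 1.16% and 2.71%, the CRE in 4.20%, 0.917% and 1.79%, and its shorter form (TGACGT), which the CRE contains, in 14.95%, 4.86% and 7.505%. The E2F site (TTTCGCGC) was in 0.952%, 0.127% and 0.323%, the YY1 core (AAGATGG) in 8.36%, 5.69% and 6.33%, and the E-box CACGTG in 763 of 6936, 5.54% and 7.15%. All of these but the YY1 core hold a CpG, whose number differs between the classes. The CCAAT box was in 44.3%, 36.03% and 37.4%.

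The other 7 motifs were in a smaller share of peak promoters. The TATA core (TATAAA) was in 5.35%, against 16.9% of promoters with no peak and 13.6% of all. The RUNX motif was in 11.8%, 18.7% and 16.8%, and its longer form (TGTGGTT), which contains it, in 3.43%, 6.01% and 5.27%. The AP-1 site (TGANTCA) was in 4.70%, 8.83% and 7.81%, and the TEAD site (GGAATG) in 10.8%, 16.05% and 14.7%. The E-box (CANNTG), of which CACGTG and the form read by MYOD1 (CAGCTG) are cases, was in 58.7%, 77.3% and 72.3%, and CAGCTG in 14.1%, 16.98% and 16.3%. These are matches of letters in windows of 1 length, not sites shown to be bound. The classes also differ in base composition, and its part in these shares was not tested.

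Peaks with and without the RUNX motif in a promoter window had nearly the same KO to WT ratio. This covers the 5352 of 8652 peaks near gene ends that have a peak promoter. The rest of each peak was not searched. The 713 distinct peaks with the motif in a promoter had a median scaled ratio of 0.983, and the 4639 without had 0.986. Lower in KO were 14 of the 713 (1.96%) and 1.81% of those without, and 22 (3.09%) and 2.72% were higher. The corresponding shares for the ETS core were 1.56% and 1.98% lower, and 2.29% and 3.03% higher. Whether RUNX1 binds any of these promoters was not measured in these files.

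Of the 17 motifs, the CCAAT box had the largest difference in median WT fold between peaks with and without it. It was singled out after the values of all 17 had been seen. The 2493 distinct peaks with a CCAAT box in a promoter had a median fold of 13.6 in WT (interval 13.3 to 13.8) and 11.6 in KO, and the 2859 without had 11.1 (10.9 to 11.3) and 9.63. The median −log10 q was 34.2 with and 23.1 without in WT, and the widths were alike, 539 and 544 bp. The next-largest difference in median WT fold among the 17, that of the TATA core, went the other way, with 11.3 with the core and 12.2 without.

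Strength rose with the number of CCAAT boxes. The median WT fold was 11.1 with none, 12.5 with 1, 14.1 with 2 and 16.2 with 3 or more (n = 2859, 1350, 696 and 447), and the KO medians were 9.63, 10.7, 12.4 and 13.4. Read the other way, 31.6% of the weakest quintile of these peaks held a CCAAT box and 67.6% of the strongest. The ETS core went from 29.9% to 39.6%, the GC box from 72.2% to 74.6% and the RUNX motif from 12.5% to 13.9%. Within each quintile of promoter GC content the peaks with a box were the stronger, with median WT folds of 12.8 against 11.3 in the lowest GC quintile and 12.5 against 9.97 in the highest. The same held at divergent starts (14.5 and 11.8) and at other starts (13.3 and 10.97).

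In peak promoters the boxes clustered before the start. Matches had a median position of 82 bases before the start, and 16.8% of them fell in the 25 bases from 75 to 50 before it, against 11.9% in promoters with no peak. In the 100 bases nearest the start, 29.01% of peak promoters and 16.2% of promoters with no peak held a box. The scaled KO to WT ratio was 0.982 with and 0.992 without a box. What binds the box was not measured in these files.

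**Figure D4:**
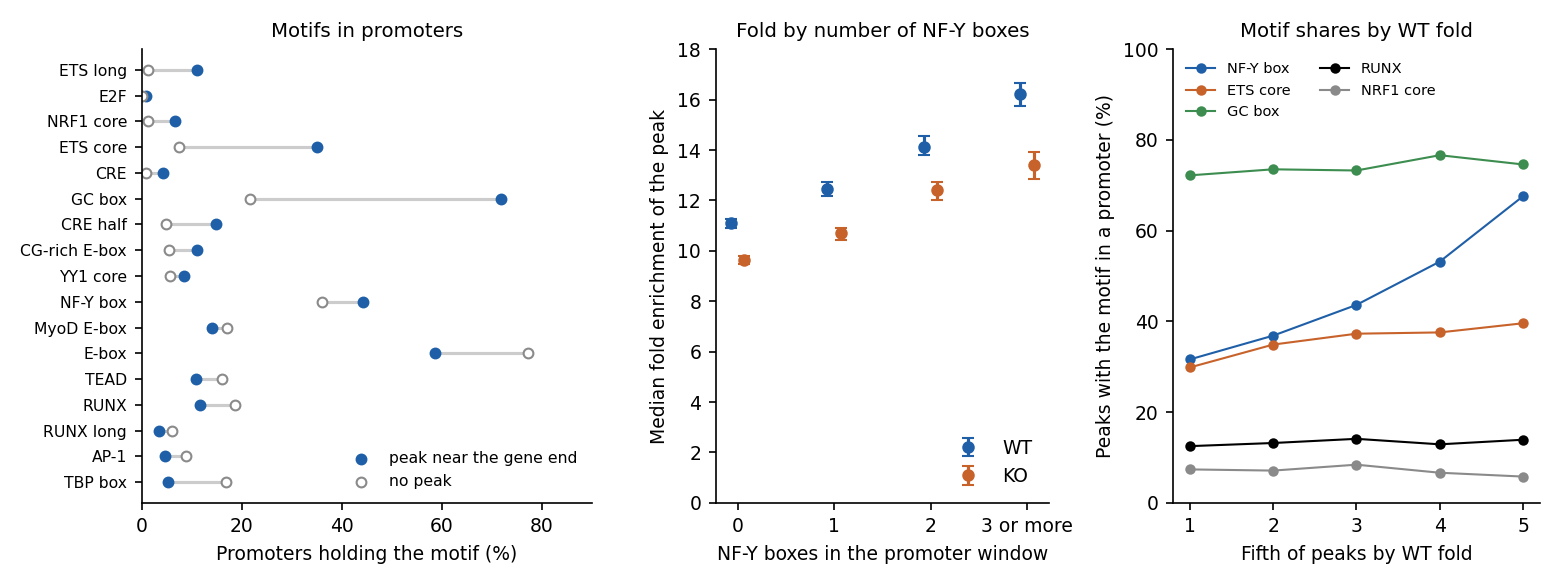
Left, percentage of promoter windows that hold each motif (x axis), in promoters under a shared peak near a gene end (filled) and in promoters with no peak (open), where the NF-Y box is the CCAAT box and the TBP box the TATA core. Middle, median fold of the peak (y axis) by number of NF-Y boxes in the window, with 95% intervals of the median, WT blue and KO orange. Right, percentage of peaks with a motif in a promoter (y axis) by quintile of WT fold, where the NF-Y box goes from 31.6% to 67.6%.

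A stretch of chromosome 8 had high deposited −log10 q in both libraries. The 5 peaks near gene ends with the highest WT −log10 q all lay there. They were at Podnl1 (chr8:84125459-84126114, 274.9 in WT and 238.5 in KO), at Calr, a chaperone of the endoplasmic reticulum (chr8:84846718-84847381, 271.1 and 211.1), at Prkaca, the catalytic subunit of protein kinase A (chr8:83972594-83973160, 240.9 and 208.7), at Gm51544 (chr8:95012294-95012974, 240.0 and 182.8) and at Ddx39a (chr8:83714893-83715573, 236.0 and 187.5). Their folds were not beyond those of other chromosomes, 20.05 to 24.3 in WT and 16.4 to 19.5 in KO.

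The stretch from 79 to 96 Mb was chosen after its values had been seen. It held 111 peaks near gene ends, with a median −log10 q of 50.6 in WT and 42.5 in KO, against 24.2 and 21.3 over the other 8541. The median folds were 12.4 and 10.1, against 11.2 and 9.81. At equal WT fold, from 16 to 20, the median −log10 q was 117.1 in WT and 97.5 in KO for 22 peaks of the stretch, and 53.3 and 43.4 for 1036 peaks elsewhere. A −log10 q of at least 100 was reached in WT by 32 of the 111 peaks (28.8%) and by 1.21% elsewhere, and in KO by 23 and by 35 peaks. The scaled ratio had a median of 0.942 there. Of the 111 peaks, 2 were lower in KO (1.802%, interval 0.4955 to 6.333) and 4 higher (3.604%, 1.41 to 8.901). Of the other 8541, 2.353% were lower and 3.946% higher, beside 3.88% and 6.22% over all shared peaks. For shared peaks away from gene ends in the same range of fold, the WT medians were 75.9 in the stretch and 51.6 elsewhere, a smaller difference. Other regions had high values too. Of the 5-Mb windows with at least 10 such peaks, the one with the highest median WT −log10 q, 60.3, lay on chromosome 1, where the median WT fold of its 15 peaks was 15.6, and on chromosome 15 the peaks with a fold from 16 to 20 had a median of 73.8. The cause was not tested. Without the stretch, the medians of the peaks near gene ends were 24.2 for WT −log10 q and 11.2 for WT fold.

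**Figure D5:**
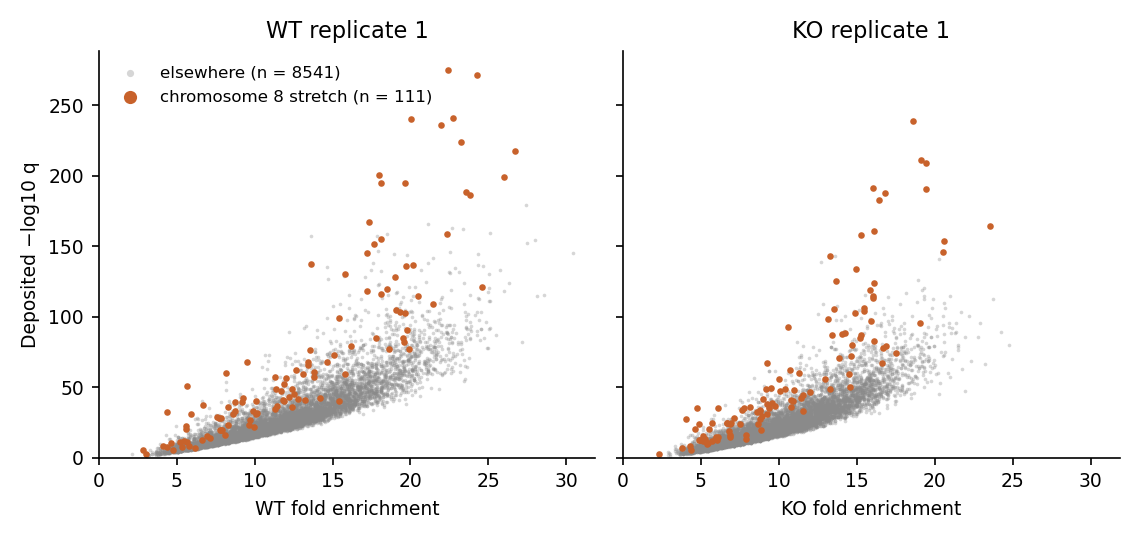
Deposited −log10 q (y axis) against fold enrichment (x axis) of each shared peak near a gene end, left in WT replicate 1 and right in KO replicate 1. Orange, the 111 peaks of the chromosome 8 stretch. Grey, the 8541 others. At equal fold the orange points lie above most grey ones in both libraries, with the highest at 274.9 in WT and 238.5 in KO.

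Across chromosomes, the share of shared peaks that lay near a gene end ranged from 27.8% on chromosome 18 to 44.3% on the X chromosome. The median WT fold ranged only from 10.85 on chromosomes 2 and 7 to 12.03 on chromosome 18, and the median scaled ratio from 0.969 on chromosome 17 to 1.02 on chromosome 14.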

How the data were processed

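The files are ATAC-seq peak lists of growth-medium cells, without a header and in the 10-column layout of narrowPeak. Of the 5 lists, 3 were used: the WT list, the KO list and the shared list, whose intervals and values are those of WT. The fold enrichment, a ratio over background, and the −log10 of the q-value are the authors' deposited values, and depend on the depth of each library. The build is mm10 per the submitters' processing notes. Aligner, peak caller, duplicate handling and the Tn5 offset are not given in the sources used here. Each can change the number, height and edges of peaks. Every peak name carries the label of a replicate 1 library.

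Coordinates were counted from 1. Gene ends and gene kinds came from a RefSeq gene table of GRCm38.p6, and strand and promoter sequences from a RefSeq promoter table of that build, which names no gene of chromosome 18. Positions at starts are relative to the outermost start of a gene. The KO partner of a peak was the KO peak with the longest overlap of at least 1 bp. Median intervals are exact binomial intervals of order statistics at 95%, and shares have Wilson intervals. No test between genotypes was run, since each genotype has 1 library of values. Tools were scipy 1.17.1, pandas 2.3.3, numpy 2.4.6 and Python 3.11.15, and 8 of 8 checks on simulated data passed, overlaps among them against bedtools 2.31.1.

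The peaks near gene ends, the 26 gene lists and the 17 motifs were chosen with earlier results of these data known. Named were the RUNX genes and Cbfb, the 5 peaks highest by WT −log10 q, the 5 widest, the 8 lowest and 8 highest scaled ratios at protein-coding genes among peaks matched 1 to 1, in each list the up to 4 genes highest by WT −log10 q and (lists of up to 30 genes) those without a peak, and the 5 protein-coding genes with the most peaks. A gene that this rule names is not reported here. A list gene with several peaks is represented by the one with the highest WT −log10 q. Alternatives in the distance, gene kinds, partner rule, fold rule, scaling, strength and promoter window were computed.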

Additional observations from a re-analysis of the deposited data

How the results depend on the processing

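Of 197 alternative values computed for the summaries, 121 stayed within the interval of the reported value or, for counts, within 1.5 times of it. The other 76 moved beyond it. Only differences and log ratios have a direction that could reverse, and none of these did. Medians, shares and counts could not. Depth is unknown, so weak peaks limit the precision. No paired analysis was possible because the lists hold the values of 1 library per genotype, and leaving out a replicate was not possible for the same reason.

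The share of shared peaks near gene ends was 30.2% within 500 bp, 40.9% within 2 kb, 29.9% with protein-coding genes only and 36.3% at a WT −log10 q of at least 10. In that order, the median WT fold was 11.6, 11.02, 11.5 and 11.96, and 11.4 for peaks matched 1 to 1. The median WT −log10 q was 25.2, 23.6, 24.98 and 26.9, the WT width 510, 490, 510.5 and 520 bp, the KO fold 10.05, 9.56, 10.01 and 10.3, the KO −log10 q 22.2, 20.9, 22.2 and 23.4, and the KO width 532, 512, 535 and 538 bp.

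Peaks lower in KO numbered 1122 with a smaller fold rule, 8 with a fold of 2, 769 without scaling, 1068 by the ratio of −log10 q and 129 at gene starts of known strand. Peaks higher in KO numbered 1175, 49, 132 and 1126 by the first 4 of these rules, 224 with a reciprocal overlap of at least 50% and 102 at a WT −log10 q of at least 10. The share lower in KO near gene ends minus that of other shared peaks was −3.39, −0.453, −3.43 and −4.64 percentage points by the first 4 rules. The share higher was −6.01, −0.617, −1.80 and −6.69, and −1.42 at a WT −log10 q of at least 10. The median overlap of WT and KO intervals was 0.807 with a reciprocal overlap of at least 50% and 0.791 for peaks matched 1 to 1.

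The alternatives without the chromosome 8 stretch and at gene starts were chosen after seeing the data. The difference in median WT fold with and without a CCAAT box, 2.44, was 2.66 in the 100 bases nearest the start and 2.42 without the stretch. Gene list counts stayed within 1.5 times in 46 of 52 alternatives, and all 17 motifs kept their direction in the 100 bases nearest the start.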
